A study of Mus musculus with 35 samples.

Results

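Caveolae are small flask-shaped pits of the plasma membrane, and the 7 genes Cav1, Cav2, Cavin1, Cavin2, Cavin3, Ehd2 and Pacsin2 encode their coat and neck. They were taken by gene symbol from a matrix of 22180 genes, so that all 7 named genes were found among 22180. The set was picked because Cavin1 and Cavin2 differed between coatings after IL-1β. The values of that contrast are therefore given as a description for every one of the 7 genes, without a test.

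The matrix holds 35 libraries of mouse RNA in 7 groups of 5, made with a kit that reads the 3′ end of each mRNA. In 30 libraries, primary enteric glia of the small intestine came from mice with a BL6 background and wildtype genotype, C57BL/6J by the methods. These cells were grown as neurospheres for 7 days and differentiated on Matrigel, laminin or poly-L-ornithine. The labels give 3 days of differentiation before the treatment, while the methods give 5 days for work other than morphology, and which holds for these libraries is not known. Each coating had 5 naive libraries in control medium and 5 libraries treated with 10 ng/ml of IL-1β, a proinflammatory cytokine, for 24 hours. The other 5 libraries, called RiboTag, hold RNA pulled down with HA-tagged ribosomes from the muscularis externa of naive Sox10iCreERT2Rpl22HA/+ Cre+ mice. In these mice a tamoxifen-inducible Cre under the Sox10 promoter turns on the tag, so the tag follows Sox10-expressing cells and not a sorted cell. The mice of the study were 8 to 16 weeks old. Nothing in the labels says which cultures shared mice, and p-values measure the spread between the libraries of a group. Matrigel is a basement membrane extract, laminin is one of its main proteins, and poly-L-ornithine is a synthetic polycation with no matrix protein.

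Library totals ran from 7522181 to 9185843 normalized counts. The glial markers Sox10, S100b and Gfap were present in each group, and 10 glial markers together had group means between 1233 and 1758 CPM in culture and 5659 CPM in RiboTag, where CPM is the share of the library total scaled to 1000000. The cultures were not glia alone. A sum of 10 fibroblast markers had group means between 4504 and 6186 CPM, and a sum of 10 smooth muscle markers, most of it from Acta2, between 445 and 2670 CPM. RiboTag libraries held 30188 to 62880 CPM of the smooth muscle markers, with Myh11 at a mean of 213017 normalized counts. Endothelial markers stayed between 27.2 and 57.4 CPM in the cultures and at 75.1 in RiboTag. Smooth muscle, endothelium and fibroblasts are all known to be rich in caveolae, so these sums stand beside the results below.

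**Figure D1:**
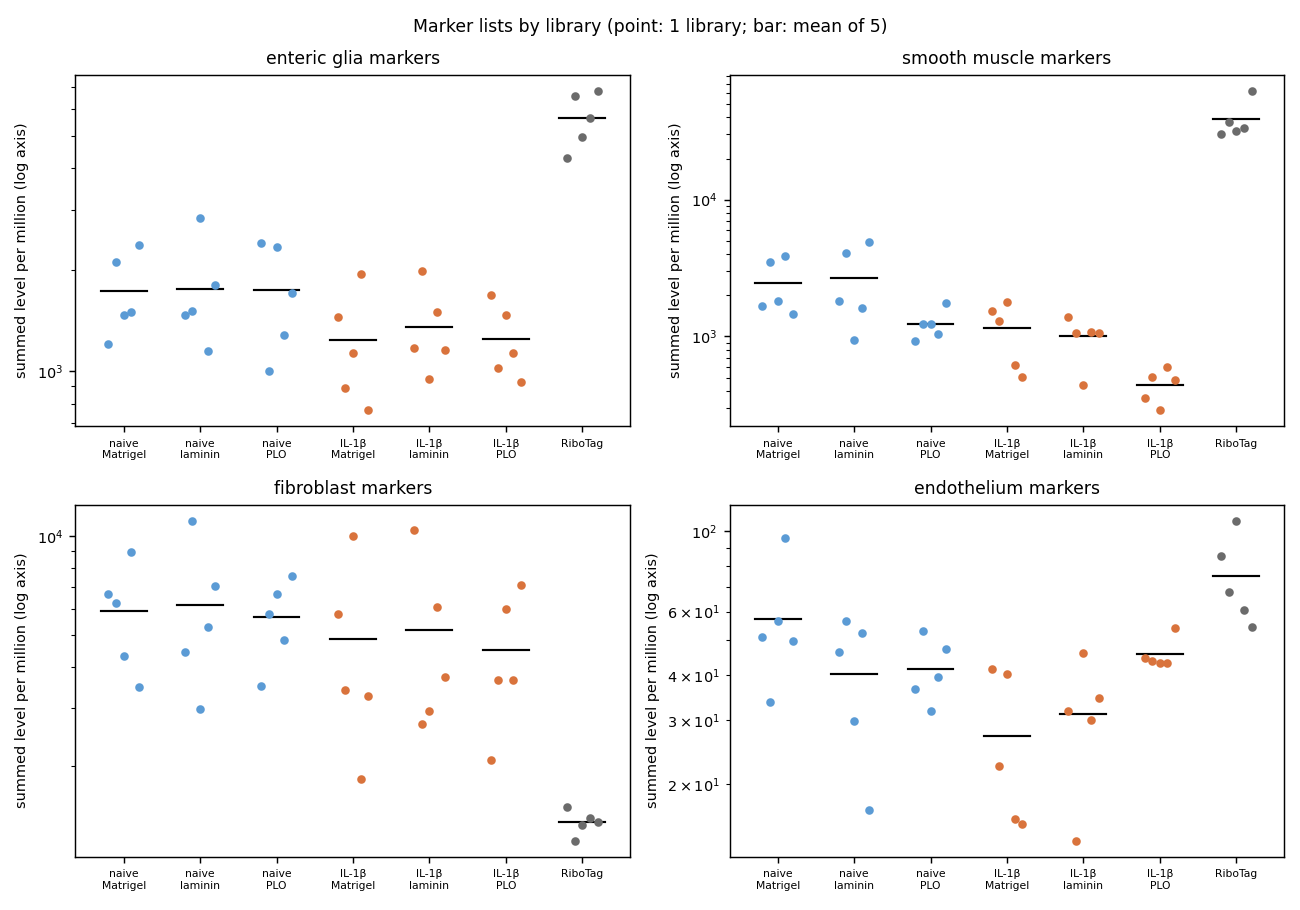
Summed level of 10 marker genes per list and library, in CPM on a log axis, for enteric glia, smooth muscle, fibroblast and endothelium; points are libraries and bars are means of 5. Smooth muscle sums were lowest on poly-L-ornithine after IL-1β, with a mean of 445 CPM, and highest in RiboTag, with a mean of 39060 CPM.

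A caveola forms when caveolins, hairpin proteins that sit in the inner leaflet and bind cholesterol, gather into scaffolds that cavins then coat from the cytosol. Cells known for many caveolae, such as adipocytes, endothelium and muscle, use them to take up membrane stretch, to sort lipids and to hold signalling proteins. Caveolin-1, from Cav1, is required for caveolae in non-muscle cells, and caveolin-2, from Cav2, assembles with it. Cavin-1, from Cavin1, is required for the coat, while cavin-2 and cavin-3, from Cavin2 and Cavin3, join it as partners that shape the membrane and recruit signalling proteins. EHD2, from Ehd2, is an ATPase that rings the neck and holds the caveola at the surface. Pacsin-2, from Pacsin2, is a membrane-bending F-BAR protein of the neck.

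The 7 genes lie on chromosomes 1, 6, 7, 11 and 15 in GRCm38. Cav2 (chr6:17281185-17289130) and Cav1 (chr6:17306335-17341328) are neighbours. Ehd2 (chr7:15946963-15967535) and Cavin3 (chr7:105480616-105482197) share chromosome 7 and lie far apart. Cavin1 is at chr11:100956736-100970617, Cavin2 at chr1:51289126-51302960 and Pacsin2 at chr15:83375607-83464610. All are protein-coding. The long noncoding gene 9330175M20Rik overlaps Cavin2, Gm24576 overlaps Ehd2, and Gm41368 and Gm5417 overlap Pacsin2. None of these 4 has a row of its own in the matrix, and the sources used here do not say whether counting used strand, so reads of an overlapping gene cannot be told from those of these 3 members.

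Upstream sequence is shown for Cavin1, Cav1 and Ehd2, which were lower after IL-1β, and for Cavin2, which was not. RefSeq, with build GRCm38.p6, gave promoter windows for 6 of the 7 genes, and Cavin3 had none. Each sequence is the 250 bases before the transcription start, 5′ to 3′ on the strand of the gene. Capitals mark the GC box GGGCGG and the core of TEAD sites, CATTCC, on either strand. Cavin1 is from the minus strand at chr11:100970618-100970867, Cav1 from the plus strand at chr6:17306085-17306334, Ehd2 from the minus strand at chr7:15967536-15967785 and Cavin2 from the plus strand at chr1:51288876-51289125.
Cavin1: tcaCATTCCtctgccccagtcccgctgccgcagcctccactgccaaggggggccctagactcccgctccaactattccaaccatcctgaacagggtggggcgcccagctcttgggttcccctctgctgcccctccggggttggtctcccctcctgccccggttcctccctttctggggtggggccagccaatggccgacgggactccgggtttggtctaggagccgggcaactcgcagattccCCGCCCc
Cav1: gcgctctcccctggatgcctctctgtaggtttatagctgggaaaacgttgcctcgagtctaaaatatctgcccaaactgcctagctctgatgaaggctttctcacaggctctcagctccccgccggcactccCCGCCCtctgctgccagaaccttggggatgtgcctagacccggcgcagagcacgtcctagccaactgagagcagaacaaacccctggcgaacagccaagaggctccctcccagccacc
Ehd2: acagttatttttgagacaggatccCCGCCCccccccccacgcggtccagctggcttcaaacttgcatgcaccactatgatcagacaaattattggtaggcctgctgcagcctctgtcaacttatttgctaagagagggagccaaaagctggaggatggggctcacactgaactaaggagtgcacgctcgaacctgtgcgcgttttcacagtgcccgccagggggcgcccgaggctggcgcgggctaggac
Cavin2: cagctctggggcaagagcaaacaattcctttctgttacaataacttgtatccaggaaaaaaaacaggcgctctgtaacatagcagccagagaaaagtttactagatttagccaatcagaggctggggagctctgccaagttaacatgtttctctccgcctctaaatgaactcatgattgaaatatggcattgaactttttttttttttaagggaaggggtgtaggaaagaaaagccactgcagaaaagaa

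The Cavin2 stretch was the most A/T-rich of these 4, with 40.4% G and C and 2 CpG dinucleotides. The Cavin1, Cav1 and Ehd2 stretches had 67.6%, 59.6% and 58.0% G and C and 12, 10 and 12 CpG dinucleotides, beside medians of 52.4% and 6 over 32851 promoters of the table. Base composition did not follow the IL-1β result. The stretch of Cav2, which did not pass, had 62.0% G and C and 10 CpG dinucleotides, and the 3 stretches of Pacsin2, which was lower, had 46.4%, 50.8% and 62.0% with 4, 2 and 18. Motifs were searched on both strands in the whole windows, which run 50 bases past the start. The 6 genes have 10 windows in the table. A GC box stood in 6 of these 10, beside 35.7% of all windows, and Cavin2 was the gene with none. The TEAD core stood in 2 of the 10, the overlapping windows of Cavin1, beside 14.7% of all windows, and lay between 247 and 242 bases before the start shown. No CArG box and no NF-κB site was found in any window of the 6 genes, beside 1.63% and 8.46% of all windows. Cavin1 and Cav1 have 2 windows each in the table and Pacsin2 has 3, and the windows of Cavin1 differ by 2 bases. The 2 motifs did not overlap in the windows shown. A match of letters is a description of the window and no more.

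Cavin1 was by far the most abundant of the set. It held a mean of 15264 ± 1533 normalized counts in naive glia on Matrigel (SD, n = 5) and ranked 62 among all genes by its mean over the libraries. Cavin3, Cavin2 and Ehd2 followed with naive means between 1446 and 2592, and Pacsin2, Cav1 and Cav2 lay between 213 and 538. Since reads come from the 3′ end, these levels do not grow with transcript length, but the share of transcripts that each gene's 3′ end yields is unknown, so the order between genes is a description. None of the 7 was at 0 in any library. The plot of the members by library shows all 245 values.

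**Figure D2:**
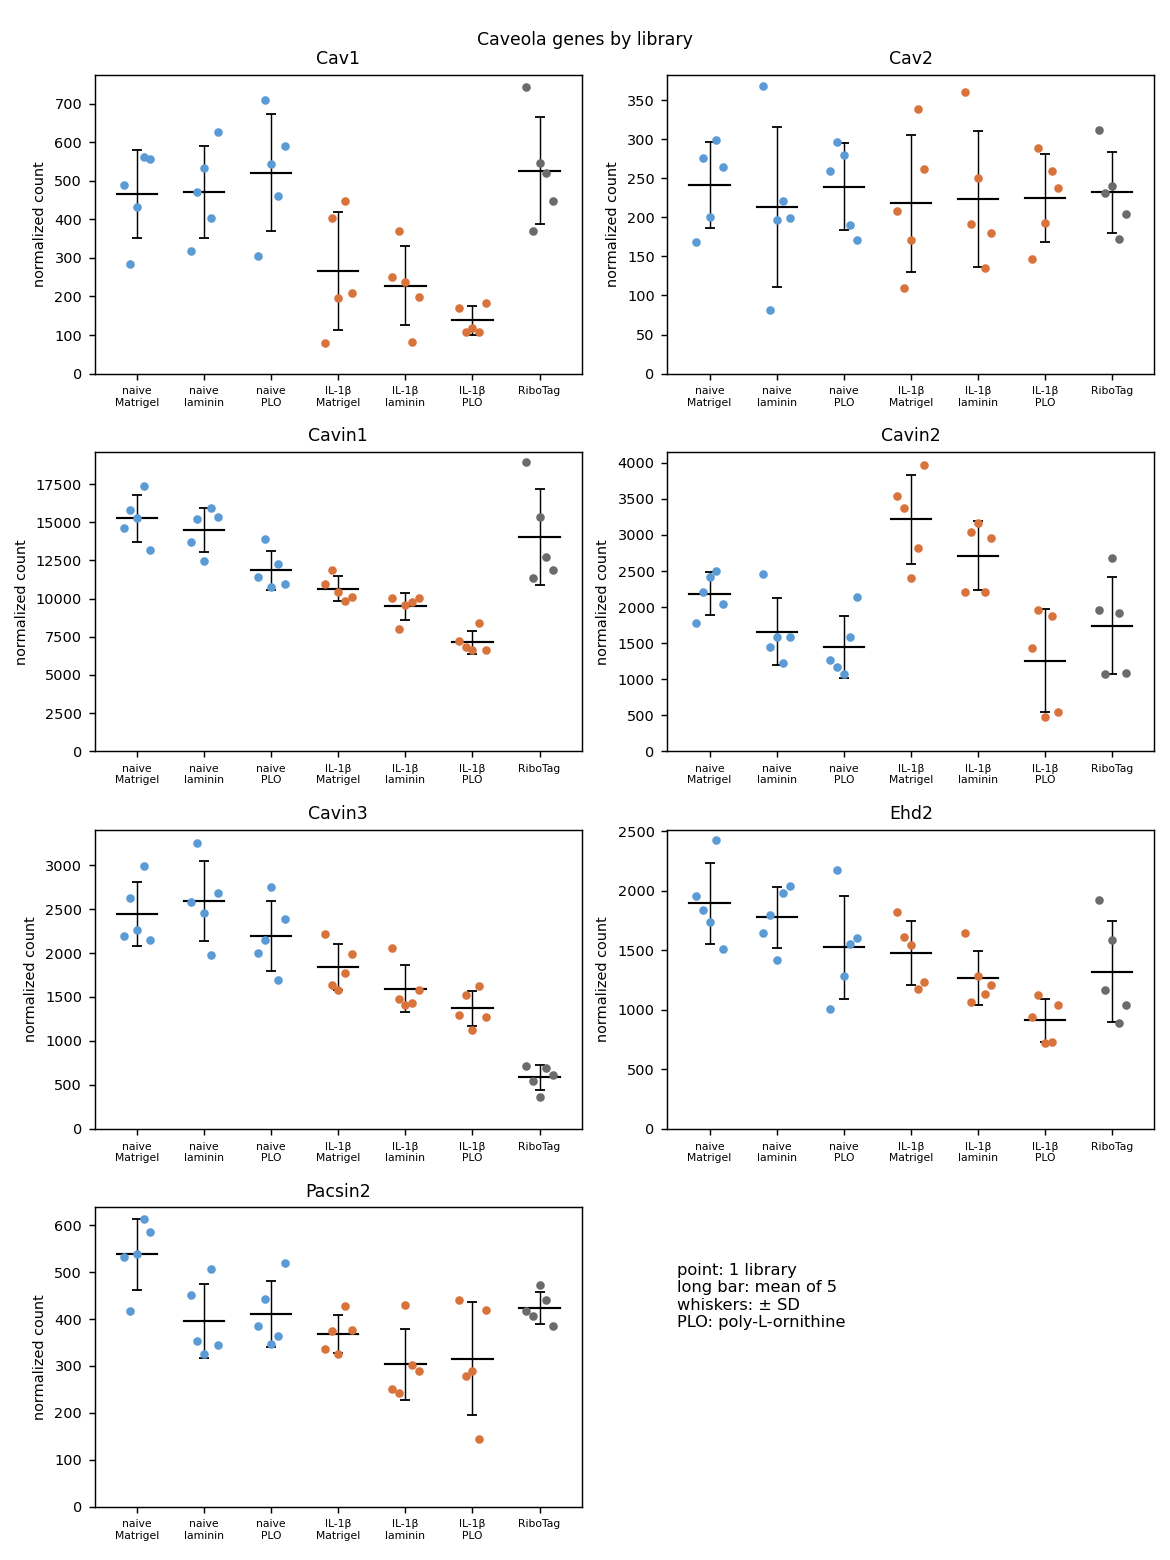
Normalized counts of the 7 genes in each of 35 libraries, 1 panel a gene with its own axis from 0; points are libraries, long bars are means of 5 and whiskers are ± SD. Cavin1 fell from 11863 to 15264 as naive means to 7141 to 10645 after IL-1β, Cavin3 was lowest in RiboTag with a mean of 585, and Cav2 means stayed between 213 and 241.

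Whether the coating alone changed these genes was asked in naive glia, with both matrix coatings against poly-L-ornithine. None of the 7 genes passed the test. Cavin1, the core of the coat, came nearest. It was at 14628, 15827, 15296, 17367 and 13202 normalized counts on Matrigel, taking libraries in replicate order here and throughout. On laminin it was at 13684, 15190.4, 12434, 15955 and 15326, and on poly-L-ornithine at 11416, 13906, 10785, 12273 and 10936. The poly-L-ornithine libraries were low as a group, but the highest of them lay above 3 of the 10 libraries on Matrigel and laminin. Cavin1 was 0.33 higher on the log2(normalized count + 2) scale used for all fits (SE 0.0788, limma adjusted p = 0.162 over 20687 genes). Cavin2 was at 1774, 2206, 2413, 2501 and 2045 on Matrigel. It was at 2456, 1450.5, 1579.6, 1230.5 and 1586 on laminin and at 1261, 1165, 1077, 1588 and 2137 on poly-L-ornithine. The groups overlapped, with 4 of 5 laminin libraries below all Matrigel libraries and 1 well inside them. Its log2 difference was 0.42 (SE 0.266, limma adjusted p = 0.959).

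The other members differed less between the coatings of naive glia. Ehd2 had a log2 difference of 0.30 (SE 0.152, limma adjusted p = 0.943), Cavin3 of 0.20 (SE 0.130) and Pacsin2 of 0.16 (SE 0.218). Neither caveolin passed, Cav1 with a log2 difference of -0.14 (SE 0.296) and Cav2 with -0.13 (SE 0.296). Errors of this size leave room for a difference in either direction. In limma 0% of the 20687 genes passed in this comparison, with 1046 genes and 1 member, Cavin1, at an unadjusted p under 0.05. Limma-voom called 1 gene and no member. No member passed between any pair of coatings either, where 1 gene of all (0.00483%) passed for Matrigel against poly-L-ornithine and 0 for the other pairs. Smooth muscle markers had means in the direction of Cavin1, at 2455 and 2670 CPM on Matrigel and laminin and 1232 CPM on poly-L-ornithine. Their libraries overlapped, at 1457 to 3846, 944 to 4935 and 919 to 1747 CPM, and 0 of their 9 tested genes passed. In the same order, fibroblast means were 5937, 6186 and 5681 CPM and endothelial means 57.4, 40.3 and 41.6 CPM. The part of these cells in these values was not tested. In bulk libraries, fewer cells of a type and less RNA per cell cannot be told apart, here or in any comparison that follows.

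Most of the caveola genes were lower after IL-1β. Averaged over the 3 coatings with equal weight, 5 of the 7 were lower after IL-1β, none was higher, and Cav2 and Cavin2 did not pass. In this comparison 7.44% of the 20687 genes passed in either direction and 4.02% passed as lower. Cav1 had the largest change, to 0.394-fold of the naive level, and Cavin1 the smallest relative error. The comparison uses the naive libraries of the coating comparison above and the IL-1β libraries on which Cavin1 and Cavin2 were picked. With equal weights it does not use the coating difference of that choice.

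Cav1, the caveolin that builds the scaffold, fell by 1.34 on the log2 scale (SE 0.197, limma adjusted p = 7.36e-07). On poly-L-ornithine it was at 304, 709.6, 543, 461 and 589 normalized counts in naive glia and at 171, 109, 118, 108 and 183 after IL-1β. These groups did not overlap, and such a separation below the naive group held for 2.01% of all genes on this coating. On Matrigel it was at 489, 284, 433, 563 and 557 in naive glia and at 79.7, 402, 197, 446 and 210.0 after IL-1β, and on laminin at 317, 470.4, 532, 403 and 628 and then 250.2, 369, 238, 82.3 and 199. On both matrix coatings the IL-1β libraries spread widely, from 79.7 to 446, and the top of them reached into the naive range. The neighbouring Cav2, whose product assembles with caveolin-1, gave no such difference. Its naive libraries ranged from 81.2 to 368 and its IL-1β libraries from 109 to 360, with a mean log2 difference of -0.06 (SE 0.198, limma adjusted p = 0.911).

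Cavin1 fell by 0.62 on the log2 scale (SE 0.0525, limma adjusted p = 5.67e-14), to 0.650-fold of the naive level. After IL-1β it was at 10936, 11901, 10402, 9863 and 10120.3 on Matrigel. It was at 10063, 7996, 9560.1, 9805 and 10016 on laminin and at 7217, 6823, 6637, 8409.6 and 6621 on poly-L-ornithine. Within each of the 3 coatings every IL-1β library lay below every naive library. Such a separation below the naive group held for 2.01% of all genes on poly-L-ornithine, and for 1.37% on laminin and 1.37% on Matrigel. The test over the coatings shares these IL-1β libraries with the choice of Cavin1, though not their coating difference, so its p-value is not free of that choice. As Cavin1 was picked on the IL-1β libraries, its responses within coatings are a description: the log2 difference was -0.73 on poly-L-ornithine, -0.61 on laminin and -0.52 on Matrigel (SE 0.0909 each).

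Cavin3, whose product binds protein kinase C delta, fell by 0.59 on the log2 scale (SE 0.0869, limma adjusted p = 6.68e-07). On Matrigel it was at 2189, 2623, 2257, 2992 and 2149 in naive glia and at 2214, 1636, 1582, 1769 and 1984 after IL-1β. On laminin it was at 2584, 3256, 2459, 1983 and 2677 and then 2055, 1478, 1407, 1434 and 1583, and on poly-L-ornithine at 2002, 2145, 2747, 1689 and 2391 and then 1297, 1528, 1125, 1627 and 1269. The groups were apart on poly-L-ornithine, as for 2.01% of all genes, and overlapped on the other coatings, on laminin through 1 high library after IL-1β. The size on the log2 scale was close to that of Cavin1, and the difference between the 2 genes was not tested.

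Ehd2, the ATPase of the neck, fell by 0.52 on the log2 scale (SE 0.101, limma adjusted p = 1.51e-04). On Matrigel it was at 1957, 1836, 1740.0, 2427 and 1514 in naive glia and at 1821, 1615, 1545, 1176 and 1231 after IL-1β. On laminin it was at 1642, 1799.5, 1416, 1980.2 and 2044 and then 1649, 1068, 1281, 1133 and 1209, and on poly-L-ornithine at 1005, 2173, 1284, 1557 and 1601 and then 939.6, 1128, 724, 727 and 1038. The naive and IL-1β libraries overlapped on each coating. Pacsin2, the F-BAR protein, fell by 0.47 on the log2 scale (SE 0.145, limma adjusted p = 0.0325). It was at 532, 418, 539.7, 615 and 585 in naive glia on Matrigel and at 337, 375, 326, 427 and 376 after IL-1β. All but 1 of the IL-1β libraries on Matrigel lay below the naive ones. On laminin Pacsin2 went from a mean of 396 ± 78.5 to 303 ± 75.8 and on poly-L-ornithine from 411 ± 70.1 to 315 ± 121 (SD, n = 5). This last call rested on single libraries: it was lost without IL-1β laminin replicate 2, IL-1β poly-L-ornithine replicate 4, naive laminin replicate 1 or 4, naive Matrigel replicate 4 or naive poly-L-ornithine replicate 5, with limma adjusted p between 0.0501 and 0.0806.

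Cavin2 had no single direction over the coatings. After IL-1β it was at 3541, 3371, 2403, 2814 and 3974 on Matrigel. It was at 2205, 3042, 3166, 2205 and 2959 on laminin and at 1428, 1955, 482, 1879 and 547 on poly-L-ornithine. On Matrigel 4 of these 5 lay above all naive libraries of that coating, and on laminin 3 of 5 did. On poly-L-ornithine 3 lay within the naive range and the other 2, at 482 and 547, below it. Over the coatings the log2 difference from naive glia was 0.30 (SE 0.177, limma adjusted p = 0.431), which did not pass. Within coatings, as a description, the difference was -0.39 on poly-L-ornithine, 0.73 on laminin and 0.55 on Matrigel (SE 0.307 each). The poly-L-ornithine value rested on single libraries, at -0.10 without IL-1β replicate 3, -0.15 without IL-1β replicate 5, -0.24 without naive replicate 5, and -0.61 and -0.59 without IL-1β replicates 2 and 4.

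**Figure D3:**
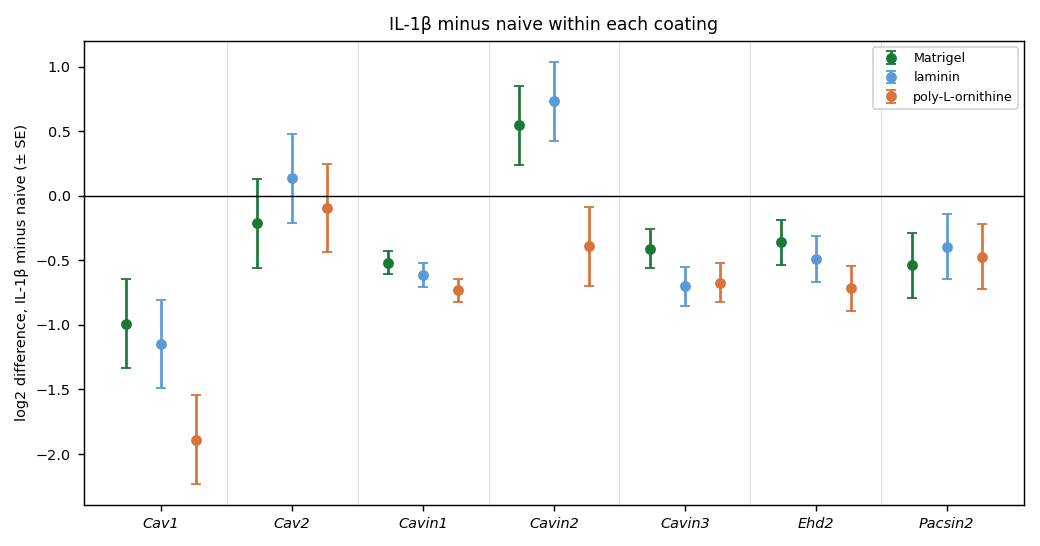
Log2 difference of IL-1β minus naive within each coating, on the scale of log2(normalized count + 2), for the 7 genes; points are estimates from 1 fit of 30 libraries and bars are ± SE. Cav1 lies lowest on poly-L-ornithine at -1.89, Cav2 lies near 0, and Cavin2 is at 0.55 and 0.73 on Matrigel and laminin and at -0.39 on poly-L-ornithine.

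Within single coatings the test was run for the 5 genes other than Cavin1 and Cavin2. On poly-L-ornithine 3 of the 5 fell, where 1.14% of all genes passed as lower. These were Cav1 with a log2 difference of -1.89 (limma adjusted p = 2.14e-04), Cavin3 with -0.67 (limma adjusted p = 0.00399) and Ehd2 with -0.72 (limma adjusted p = 0.0108). The Ehd2 call was lost without IL-1β poly-L-ornithine replicate 3 (limma adjusted p = 0.0560) or naive poly-L-ornithine replicate 2 (0.0824). On laminin 1 of the 5 fell, where 0.735% of all genes passed as lower: Cavin3 with -0.70 (limma adjusted p = 0.00271). Cav1 had a log2 difference of -1.15 there (limma adjusted p = 0.0668), and it passed without IL-1β laminin replicate 2 (0.0242) or naive laminin replicate 1 (0.0493). On Matrigel none of the 5 passed in limma or limma-voom, 4 of them had an unadjusted p under 0.05, and 0.822% of all genes passed as lower. Cav1 was at -0.99 on Matrigel (limma adjusted p = 0.152), Cavin3 at -0.41 (0.201), Ehd2 at -0.36 (0.436) and Pacsin2 at -0.54 (0.404). Whether a response differed between coatings was not tested for any member, because the IL-1β libraries on the coatings chose the set.

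Among markers of caveola-rich cells, those of smooth muscle were lower after IL-1β. Their means were 1144 CPM on Matrigel, 1000.0 CPM on laminin and 445 CPM on poly-L-ornithine, and 5 of their 9 tested genes were lower over the coatings, beside 4.02% of all genes. Myocd, the master regulator of smooth muscle, was near 0 in every culture group, with means up to 1.07 normalized counts. In the same order, fibroblast markers had means of 5937, 6186 and 5681 CPM in naive glia and 4865, 5185 and 4504 CPM after IL-1β, with 2 of 10 lower. Endothelial markers went from 57.4, 40.3 and 41.6 CPM to 27.2, 31.3 and 45.8 CPM, with 1 of 9 lower, so that their sum was not lower on poly-L-ornithine. Glial markers went from 1729, 1758 and 1744 CPM to 1233, 1347 and 1245 CPM, with 3 of 10 lower and 1 higher. The part of these cells in the lower caveola genes was not tested.

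After IL-1β the coatings differed in the contrast that chose the set. Cavin2 was 2.73-fold higher on both matrix coatings than on poly-L-ornithine, with a log2 difference of 1.45 (SE 0.266). All 10 libraries on the matrix coatings, at 2205 to 3974 normalized counts, lay above all 5 on poly-L-ornithine, at 482 to 1955. Of all genes, 0.226% were separated in either direction and 0.118% were above, and 0.615% were above for laminin alone. Cavin1 was 1.41-fold higher, with a log2 difference of 0.49 (SE 0.0788). Its Matrigel libraries lay above all poly-L-ornithine libraries, as for 0.529% of all genes, and on laminin 4 of 5 did so. Replicate 2 on laminin, at 7996, was under the highest poly-L-ornithine library, at 8409.6.

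Ehd2 followed the same order, with a log2 difference of 0.59 (SE 0.152) for both matrix coatings and 0.70 for Matrigel alone, where no library overlapped with poly-L-ornithine. Of all genes, 0.529% were above in that way on Matrigel. Cav1 had a log2 difference of 0.68 (SE 0.296), with 4 of 5 libraries on each matrix coating above all on poly-L-ornithine and the remaining one of each below them all. Cavin3 was at 0.32 (SE 0.130), Pacsin2 at 0.17 (SE 0.218) and Cav2 at -0.08 (SE 0.296). In the same contrast 63 of all genes passed (0.305%), 46 of them as higher on the matrix coatings (0.222%). Nothing is read from the members beside these shares, since the contrast chose them. Smooth muscle markers had the same order as Cavin1 and Ehd2, lowest on poly-L-ornithine at 288 to 596 CPM beside 444 to 1779 on Matrigel and laminin, and their part in the result was not tested.

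**Figure D4:**
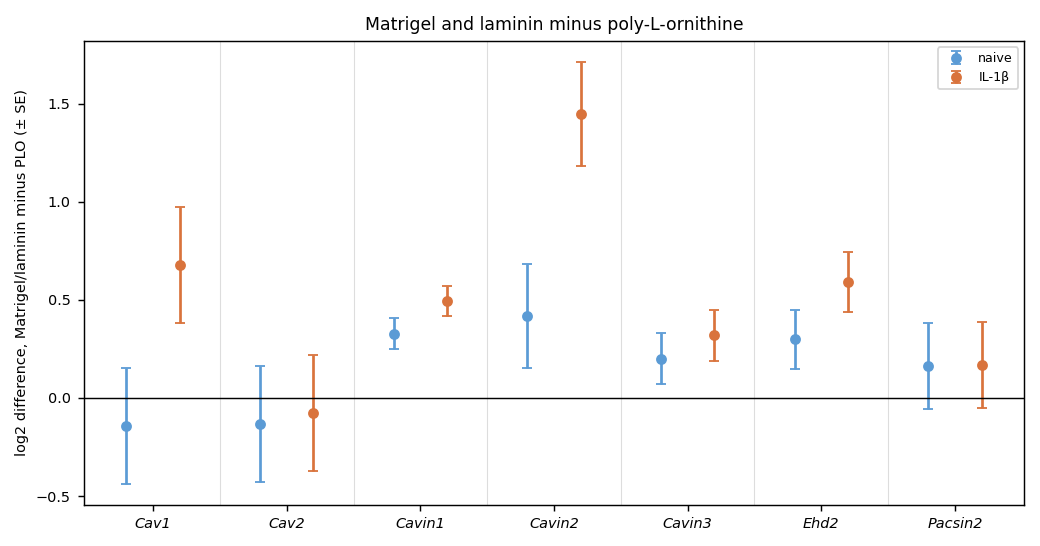
Log2 difference of Matrigel and laminin minus poly-L-ornithine in naive glia and after IL-1β for the 7 genes, with bars of ± SE from 1 fit of 30 libraries. Cavin2 is at 0.42 in naive glia and 1.45 after IL-1β, Cavin1 at 0.33 and 0.49, and Cav2 is below 0 in both.

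The balance of the cavin genes was read as the ratio of 2 cavin mRNAs in the same library, and cavin protein was not measured. In naive glia the group means of Cavin2 to Cavin1 lay between 0.117 and 0.144, and the libraries of the coatings overlapped. Cavin2 was at 0.144 ± 0.0145 of Cavin1 on Matrigel, 0.124 ± 0.0433 on poly-L-ornithine and 0.117 ± 0.0395 on laminin (SD, n = 5). After IL-1β it was at 0.303 ± 0.0599 on Matrigel and 0.290 ± 0.0693 on laminin, above every naive library of those coatings, and at 0.173 ± 0.0926 on poly-L-ornithine, which overlapped with naive glia. These ratios hold the values that chose the set and were not tested. Cavin3 stayed between 0.160 and 0.192 of Cavin1 as group means in all 6 culture groups. The ratio of Cavin2 to Cavin3 was less even in naive glia. Its mean was 0.902 for Matrigel, beside 0.650 for laminin and 0.680 for poly-L-ornithine. The libraries overlapped, and the difference was not tested. Cavin1 was at group means of 24.4 to 35.1 times Cav1 in naive glia and 54.3 to 58.0 times after IL-1β. The spread of this last ratio reached from 21.7 to 137 between IL-1β libraries.

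**Figure D5:**
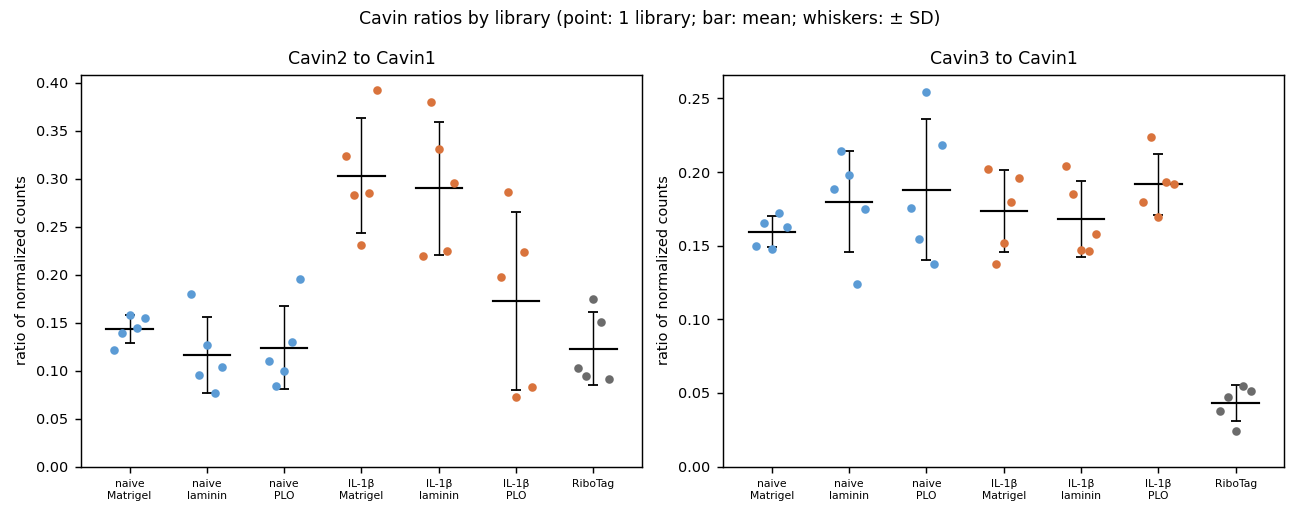
Ratio of normalized counts of Cavin2 to Cavin1 and of Cavin3 to Cavin1 in each of 35 libraries; points are libraries, bars are means of 5 and whiskers are ± SD. Cavin2 to Cavin1 is highest on Matrigel and laminin after IL-1β, at means of 0.303 and 0.290, and Cavin3 to Cavin1 is lowest in RiboTag, at a mean of 0.043.

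Among libraries of the same culture group the members did not vary as 1 block. Over the 30 culture libraries, deviations from the group means were most alike for Cavin1 and Ehd2, with a Pearson r of 0.528 and a Spearman rho of 0.529. The other 20 pairs ranged from -0.354 for Cavin3 and Pacsin2 to 0.331 for Cavin2 and Cavin3. Cav1 and Cav2, although neighbours, had an r of 0.009. Libraries of a group share their coating and treatment, and the counting error of low members is unknown. The 5 genes most like Cavin1 by this measure, among 10202 named genes with a mean of at least 50, were 2310022B05Rik (0.711), Ehd3 (0.697), Myl6 (0.694), Mfge8 (0.662) and Bace1 (0.660). Those most like Cavin2 were Sgta (0.730), Cplx2 (0.719), Jmjd7 (0.708), Rpl3-ps1 (0.707) and Rpl35 (0.703). These are the largest values among the 10202 genes, and the level that unrelated genes would reach was not tested. Ehd3 is a relative of Ehd2 that works in endosomal traffic, and Myl6 is a nonmuscle and smooth muscle myosin light chain.

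The spread within groups also set the members apart. Cavin1 had SDs between 7.59% and 10.8% of the mean in the culture groups. Cav1 had 57.3% on Matrigel and 45.2% on laminin after IL-1β, and Cavin2 had 56.3% on poly-L-ornithine after IL-1β. In the order of the 7 group means, neighbouring groups overlapped for each of Cav1, Cav2, Cavin1, Cavin2, Ehd2 and Pacsin2. For Cavin3 the lowest step, from poly-L-ornithine after IL-1β to RiboTag, was free of overlap.

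RiboTag libraries were compared with the 15 naive culture libraries to set the cultures beside glia in tissue. Of the 7 genes 2 were lower in RiboTag, Cavin3 and Ehd2, and none was higher. The groups differed widely, since 45.5% of 20320 genes passed, 31.3% as higher and 14.1% as lower. The median log2 difference over all genes was 0.32. RiboTag RNA was extracted with another kit and selected on ribosomes, so assay and tissue cannot be told apart from the culture.

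Cavin3 was at 719, 540.3, 366, 693 and 608 normalized counts in RiboTag. All 5 lay below all 15 naive libraries, the lowest of which was at 1689, and 5.93% of genes were separated in this direction. Cavin3 was 4.16-fold lower, with a log2 difference of -2.06 (SE 0.140, limma adjusted p = 1.42e-14). Every RiboTag library was also below every IL-1β library, which held for 6.21% of genes. The ratio of Cavin3 to Cavin1 was 0.043 ± 0.0124 in RiboTag (SD, n = 5).

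The other cavins were near the cultures. Cavin1 was at 18966, 11379, 15328, 12704 and 11854 in RiboTag, with 1 library above all naive ones and the rest within their range, and had a log2 difference of 0.00 (SE 0.0898, limma adjusted p = 0.972). Cavin2 was at 1958, 1073, 2682, 1921 and 1085, with a log2 difference of -0.05 (SE 0.181, limma adjusted p = 0.823). The ratio of Cavin2 to Cavin1 was 0.123 ± 0.0378 in RiboTag (SD, n = 5), within the range of naive glia.

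Ehd2 was at 1925, 1170.1, 1586, 885 and 1040.0 in RiboTag, overlapping with the cultures. It was 1.33-fold lower, with a log2 difference of -0.42 (SE 0.157, limma adjusted p = 0.0284). The call was lost without RiboTag replicate 2, 4 or 5 (limma adjusted p = 0.0689, 0.166 and 0.103) and with a common library total (0.0844). Cav1 was at 742, 371, 547, 521 and 448, with a log2 difference of 0.12 (SE 0.201, limma adjusted p = 0.659). Cav2 had a mean of 232 ± 52.0 (SD, n = 5) and a log2 difference of 0.05 (SE 0.259). Pacsin2 had a mean of 424 ± 33.5 and a log2 difference of -0.05 (SE 0.167). Among Cav1, Cav2, Cavin1, Cavin2 and Pacsin2, each sign near 0 changed with the scaling or without a single library. All 7 differences lay below the median of all genes. Pericyte markers, at 42.4 to 82.8 CPM as culture means, were at 4049 in RiboTag, and all 10 smooth muscle markers were higher there, while 6 of 10 fibroblast markers were lower. The part of those cells in the RiboTag levels was not tested.

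Relatives of the members moved both ways with IL-1β. Of 8 relatives, 2 fell and 1 rose over the coatings, with a list median of -0.36 on the log2 scale beside -0.04 over all genes. Over all genes 7.44% passed in this comparison, 4.02% as lower, which also stands beside the counts of the lists that follow. Ehd3 fell by 1.07 on the log2 scale (limma adjusted p = 1.69e-07), from naive means of 707 (Matrigel), 558 (laminin) and 479 to 239, 299 and 254 after IL-1β, in normalized counts and with poly-L-ornithine last. Ehd4 fell by 0.83 (limma adjusted p = 1.85e-04). Ehd1, the family member of the endocytic recycling compartment, rose by 0.59 (limma adjusted p = 2.75e-07). Cav3 and Cavin4, the muscle members of their families, had culture means of 0 to 6.44 normalized counts.

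Genes of regulators, cargo, membrane lipids and the clathrin coat had 1 to 3 calls a list. Of 13 regulators and actin links, 2 fell, Prkca by 0.75 (limma adjusted p = 0.0202) and Rhoa by 0.21 (0.0275). Of 18 tested genes for proteins known to gather in caveolae, Cd44, a hyaluronan receptor, rose by 1.71 (limma adjusted p = 8.39e-24), and Aoc3 and Adcy6 fell by 2.61 and 0.73 (0.00439 and 0.0388). Of 13 genes for lipids of the caveola membrane, Pip5k1a and Npc2 rose by 0.35 and 0.25 (limma adjusted p = 0.0047 and 0.0443) and Sgms1, a sphingomyelin synthase, fell by 0.56 (0.0267). Of 14 genes of the clathrin coat and flotillins, Clta alone passed, and it fell by 0.26 (limma adjusted p = 0.0221). The medians of these 4 lists lay between -0.14 and 0.01.

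SRF and its coactivators MRTF control actin and smooth muscle genes. The list of these factors and their targets gave the most calls of any list. Of 12 genes 8 fell, beside 4.02% of all genes, none rose, and the list median was -1.05 beside -0.04. Fhl2 fell by 1.02 on the log2 scale (limma adjusted p = 1.88e-04), Acta2 by 1.35 (6.27e-04), Tpm1 by 0.73 (9.95e-04) and Tpm2 by 1.09 (0.00486). Acta2, Cnn1 and Tagln of this list are also smooth muscle markers. Of 16 YAP and TEAD genes, Axl rose by 0.39 (limma adjusted p = 2.68e-05), and Crim1 and Tead3 fell by 0.54 and 0.95 (1.82e-04 and 0.0187). After IL-1β, as a description, Crim1 and Amotl2 of that list were 1.19 and 0.89 higher on the log2 scale on both matrix coatings than on poly-L-ornithine. These 2 were picked from the 16 by that same contrast. The list median there was 0.40 beside 0 over all genes, with 13 of 16 above 0. In naive glia no gene of any of these 7 lists passed between coatings in limma, with Dab2 nearest at a log2 difference of 0.55 (limma adjusted p = 0.504).

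In RiboTag the relatives differed in both directions. Of the 8, 4 were higher and 1 lower than in naive cultures, where 31.3% of all genes were higher and 14.1% lower, with a list median of 0.36 beside 0.32 over all genes. Cav3, the caveolin of muscle, was at a mean of 168 normalized counts in RiboTag and at up to 6.44 in culture means. Pacsin1, the neuronal pacsin, was at 1163 in RiboTag beside naive means of 70.2 to 142. Ehd4 was 1.23 higher on the log2 scale and Ehd1 was lower, with a log2 difference of -1.42. Of 20 genes for proteins known to gather in caveolae, 12 were higher and 5 lower, and of 12 SRF and MRTF genes, 7 were higher and 3 lower. Of the other lists, 5 of 13 regulators were higher and 2 lower, 2 of 13 lipid genes higher and 5 lower, 5 of 14 genes of the clathrin coat and flotillins higher and 6 lower, and 5 of 16 YAP and TEAD genes higher and 8 lower. Acta2, Cnn1 and Tagln of the SRF and MRTF list are also smooth muscle markers. The part of muscle cells in the RiboTag levels of these lists was not tested.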

How the data were processed

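The authors prepared QuantSeq 3′ mRNA libraries, trimmed the reads with cutadapt in the Lexogen pipeline of Partek Flow, used STAR 2.5.3 to align them to mm10, quantified genes and tested them with DESeq2. The labels and methods used here give no annotation release. The deposited signal is a matrix of normalized counts, estimated counts that the authors scaled by 1 factor per library. Groups were therefore tested with limma 3.58.1 (R 4.3.3, trend and robust estimation) on log2(normalized count + 2), leaving out genes that never exceeded 15 in a fit. Benjamini-Hochberg adjustment covered every gene of a comparison, with a two-sided threshold of 0.05. The first fit held the 6 culture groups, the second RiboTag with the 3 naive groups. The methods state a general sequencing depth in raw reads, but the depth of each library is unknown. Values and figures were handled in Python 3.11.15. The fits were also run on simulated data, where most changes of 0.6 on the log2 scale were missed. Of 100 such changes, 26 were found for IL-1β over the coatings, 17 between naive coatings and 20 for RiboTag. Of 100 changes of 1.3, 63, 60 and 60 were found, with 1, 8 and 3 false calls.

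The 7 genes, the gene lists and the tests were chosen with earlier results of these data known. The text names all members, up to 4 genes of each pathway list with the smallest adjusted p, and the 5 genes most like Cavin1 and Cavin2. A few genes that this rule would name are not reported here. Alternatives were other pseudocounts, filters, scalings, weights, variance priors, fewer groups in a fit, a replicate block and leaving out each library. Same-numbered culture libraries had a mean correlation of -0.018 in their deviations from group means (75 pairs), so no pairing by number was seen. Such a value cannot tell whether same-numbered cultures shared mice.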

Additional observations from a re-analysis of the deposited data

Results flagged for a closer look

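Of the 49 sets of 5 libraries, 1 for each gene and group, 2 had a library far from the others, and such a gap arises by chance in about 1 of 20 sets of 5. Cavin1 was at 7996 normalized counts in replicate 2 on laminin after IL-1β, and the nearest of the other 4 was at 9560.1, a gap of 0.757 of the group's range. Cavin3 was at 2055 in replicate 1 of the same group, and the nearest was at 1583, a gap of 0.728 of the range. The libraries differ between the 2 genes.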

How the results depend on the processing

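The 5 members lower after IL-1β over the coatings passed under all 10 alternative settings, and Cavin3 was lower in RiboTag under all of them. Without any single library, these calls held for Cav1, Cavin1, Cavin3 and Ehd2 and, in RiboTag, for Cavin3, but not for Pacsin2. No coating difference of a member after IL-1β moved by more than 1 residual SD between libraries under an alternative setting or without a single library, but without single libraries the sign of the difference between both matrix coatings and poly-L-ornithine changed in Pacsin2 (-0.0857 to 0.32) and Cav2 (-0.22 to 0.0349). The count of members called in RiboTag was 1 in place of 2 with a common total, with limma-voom and without trend and robust estimation, where Ehd2 was lost (log2 difference -0.31, -0.31 and -0.42), and 1 to 2 without single libraries. On poly-L-ornithine, Cavin3 and Ehd2 lost their IL-1β calls without trend and robust estimation (limma adjusted p = 0.0544 and 0.0874). Cav1 on laminin passed when only the groups compared were fitted (log2 difference -1.15, limma adjusted p = 0.0237). Signs near 0 changed for RiboTag: Cavin1 was at -0.0455 with median ratio scaling, Cavin2 at 0.049 with a common total and 0.0556 with limma-voom, and Pacsin2 at 0.0493 and 0.0461 with these.

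Without single libraries, log2 differences in RiboTag ranged from -0.0108 to 0.24 for Cav1, -0.0629 to 0.15 for Cav2, -0.11 to 0.0738 for Cavin1 and -0.23 to 0.0975 for Cavin2. For Cav2 the IL-1β response ranged from -0.16 to 0.0196 over the coatings, -0.40 to 0.00772 on Matrigel, -0.17 to 0.37 on laminin and -0.21 to 0.0471 on poly-L-ornithine, and the naive coating difference from -0.25 to 0.0201. The count over all genes after IL-1β between coatings was 12 in place of 63 without trend and robust estimation, and 17 without poly-L-ornithine replicate 3. In naive glia it was 1 with limma-voom, 2 without trend and robust estimation and 2 with only the groups compared, in place of 0, and up to 6 without single libraries. The causes were not tested.

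With the replicate number as a replicate block, 5 members passed over the coatings after IL-1β and 2 in RiboTag, and no call of a member changed. RiboTag and culture libraries of the same number came from mice of different genotype, so the block in that fit cannot stand for shared mice. Of 30 culture libraries 4 were closest to their own number. Scaling moved the median of all genes in RiboTag between 0.29 and 0.41. Without the read depth of each library, low values such as those of Cav2 have unknown counting error.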
